A study of Caenorhabditis elegans with 4 samples.

Results

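The 433 peaks of JUN-1 tagged with GFP that lie on chromosome II of Caenorhabditis elegans L1 larvae are described here. They are all rows of the combined peak list placed on II, 433 of 4277 peaks in all, or 10.1% (95% exact binomial interval 9.24 to 11.1). The replicate lists held 248 of 2370 peaks on II in ChIP replicate 1 and 435 of 4272 in ChIP replicate 2. Membership depends on chromosome alone and on no measured value.

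JUN-1 is the worm member of the Jun family of basic leucine zipper transcription factors, which bind DNA as dimers with one another or with Fos family proteins at AP-1 sites. ChIP-seq crosslinks protein to DNA, pulls down the tagged protein with an antibody and sequences the attached fragments, so that a peak marks a stretch of genome enriched in the precipitate. The autosomes of C. elegans have no single centromere, and their gene-rich centres, where recombination is rare, are flanked by arms with more repeats and more recombination. The gene jun-1 itself is annotated on chromosome II in assembly WBcel235, the same chromosome as the peaks below. Its place in WS180, the genome build of the lists, was not looked up, and genes beside the peaks and the sequence under them were not analysed here.

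The series has 4 libraries, 2 ChIP and 2 input, all from hermaphrodites of strain OP234 at the L1 stage. The strain carries unc119(ed3) and wgIs234, a transgene introduced by bombardment in which T24H10.7, the sequence name of jun-1, is joined to TY1, EGFP and FLAG. Neither the genotype label nor the strain label names a change in the endogenous gene, and both groups share this genotype. Larvae grew at 20 °C on bacterial plates, although the stage is labelled L1 26dC, and were fixed whole in 2% formaldehyde, so all cell types are mixed. Tagged protein was collected with a goat polyclonal antibody against GFP. The input libraries have no peak list in the files used here, and no untagged strain was analysed here.

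No list holds read counts. Depth is therefore unknown, and a peak missing from a list may lie below its detection limit. The combined list was not independent of replicate 2. On II, 406 of 433 combined peaks, or 93.8% (95% exact interval 91.1 to 95.9), had the start, end and q-value of a replicate 2 peak, against 83.6% over the whole list. Comparison between replicates therefore means replicate 1 against the combined list below. With 2 ChIP libraries of 1 group there is no contrast between groups, and peaks are not replicates, so no p-value is given. Intervals are exact Clopper-Pearson intervals that cover counting error only, and no difference between chromosomes or between parts of II was tested. The labels do not say whether separate cultures gave the replicates, so their spread may be technical.

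JUN-1 peaks were unevenly spread along II, with a sparse left arm, a crowded centre and a right arm nearer to the centre in density. Chromosome lengths of WS180 were not used, so positions are given relative to the outermost peaks in any of the 3 lists, II:18812-15266788, a span of 15.2 Mb. The centre is the middle 50% of this span and each arm is 25%. The left arm held 63 combined peaks, or 16.5 per Mb, the centre 261 peaks, or 34.2 per Mb, and the right arm 109 peaks, or 28.6 per Mb. Replicate 1 showed the same order at a lower level, with 9.71 per Mb in the left arm, 18.9 in the centre and 17.6 in the right arm.

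The centre held 60.3% of the combined peaks (95% exact interval 55.5 to 64.9) and 58.1% of the replicate 1 peaks (51.7 to 64.3). The left arm held 14.5% of the combined peaks (11.4 to 18.2) and the right arm 25.2% (21.2 to 29.5). The intervals of the arms did not overlap, but they treat peaks as independent, and the difference was not tested. In replicate 1 the left arm held 14.9% (10.7 to 20.0) and the right arm 27.0% (21.6 to 33.0). The centre share of II lay within the range of the other autosomes. Theirs ran from 56.5% on III to 65.6% on V in the combined list, and from 55.0% on IV to 66.5% on V in replicate 1. Other autosomes differed in which arm was the sparser one. On IV the left arm had 34.4 peaks per Mb and the right arm 18.4, on I the arms had 29.1 and 30.2, and on III they had 30.6 and 38.1. The left arm of II, at 16.5 per Mb, had the lowest combined density of the 10 autosomal arms, and at 9.71 per Mb it was also lowest in replicate 1, where the left arm of I had 11.2.

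Over the whole span II had 28.4 peaks per Mb in the combined list, the lowest value there, against 32.0 on IV, 38.1 on I, 39.4 on III, 45.1 on X and 67.0 on V. In replicate 1 it did not rank lowest, with 16.3 per Mb on II, 14.5 on I and 19.6 to 38.0 on the others. Its combined peaks covered 228009 bp, or 1.50% of the span, beside 1.50% on IV and 1.75 to 2.22% on the other chromosomes. In that list II thus had fewer peaks per Mb than IV and about the same covered share.

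**Figure D1:**
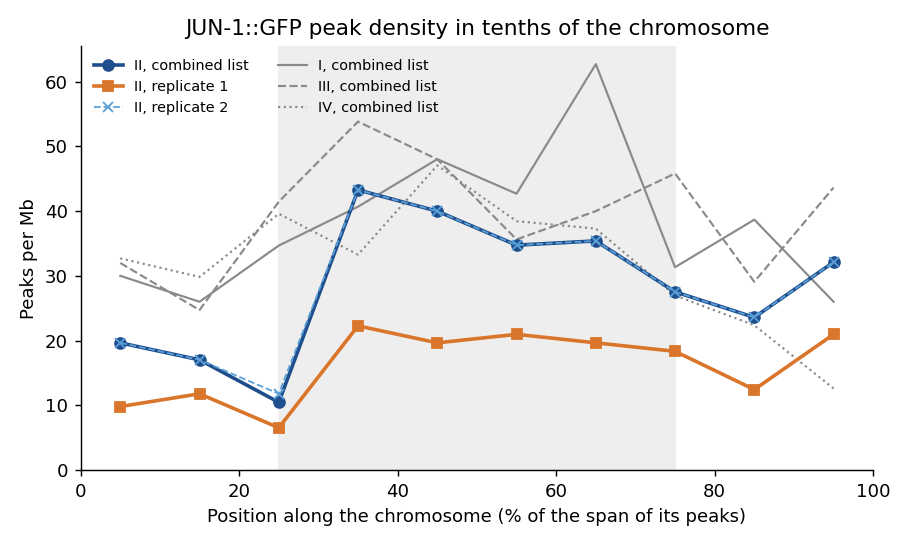
Peaks per Mb in successive steps of 10% of the span of the chromosome, with the middle 50% shaded, for the 3 lists on II and for the combined list on I, III and IV. On II the combined density is 10.5 per Mb at 20 to 30% of the span and 43.3 per Mb at 30 to 40%, and replicate 1 shows the same step at 6.56 and 22.3 per Mb.

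The change from sparse to dense fell within a short distance. Windows of 1 Mb from II:1000001 to II:5000000 held 18, 20, 10 and 21 combined peaks, and II:5000001-6000000 held 47, the most on the chromosome. The next densest windows were II:6000001-7000000 with 41 and II:9000001-10000000 with 37. Replicate 1 also had its highest count, 25, in II:5000001-6000000, followed by 24 in II:6000001-7000000. Its lead there was small, since II:9000001-10000000 and, in the right arm, II:14000001-15000000 each held 23 replicate 1 peaks. Both lists had their highest window count at the left side of the centre, clearly so only in the combined list.

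The sparsest of the 14 inner windows was II:3000001-4000000, with 10 combined, 5 replicate 1 and 12 replicate 2 peaks. II:12000001-13000000 held 17 combined peaks and II:1000001-2000000 held 18, against a median of 32 over the inner windows. The window II:12000001-13000000 interrupted the right side, since its neighbours held 31 and 32 peaks.

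Of the 5 longest stretches without a peak, 4 lay left of II:5000000. The widest gap ran from II:3246223 to II:3521387, 275163 bp, with 0 replicate 1 peaks and 2 replicate 2 peaks inside. The gaps II:3553777-3786550 of 232772 bp, II:1402509-1621811 of 219301 bp and II:4089654-4299201 of 209546 bp held 0 peaks of either replicate. The other one, II:14598585-14794831 of 196245 bp, lay in the right arm. The gap at II:4089654-4299201 lay just inside the centre, in a window of 21 combined peaks.

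Neighbouring peaks on II were further apart than on any other chromosome in the combined list, but not in replicate 1. The median distance between midpoints was 19108 bp in the combined list, with quartiles of 5698 and 48352 bp, and 36134 bp in replicate 1. On the other chromosomes the combined median was between 5913 bp on V and 16749 bp on IV. In replicate 1 it was 39610 bp on I, above that of II, and 10975 to 28555 bp on the other chromosomes. Within II the combined median distance was 36248 bp in the left arm, 16405 bp in the centre and 15786 bp in the right arm. In the combined list the right arm thus had a lower density than the centre but a similar median distance. In replicate 1 the median distance was 31215 bp in the centre and longer, 36789 bp, in the right arm.

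**Figure D2:**
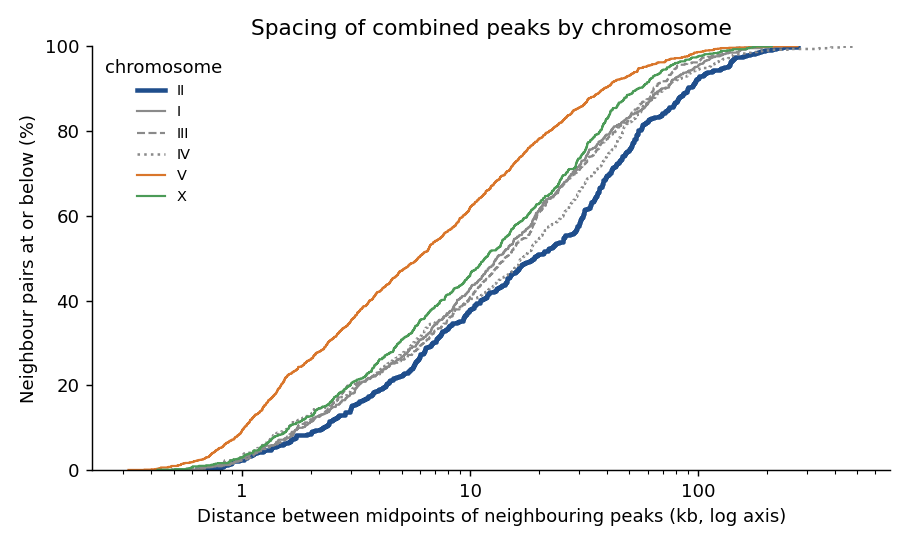
Cumulative share of neighbouring combined peaks (vertical axis, %) whose midpoints lie within a given distance (horizontal axis, kb on a log scale), by chromosome. At the median the curve of II lies furthest to the right, at 19108 bp, and that of V furthest to the left, at 5913 bp.

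Most peaks on II stood alone. With peaks less than 5000 bp apart joined, 267 were single and 166, or 38.3%, fell into 63 clusters of at least 2. On the other chromosomes 45.9% to 69.9% of combined peaks were in such clusters, and their peaks were denser. In replicate 1 the share was 29.8% on II, 29.0% on I and 33.4% to 53.3% on the others. Of the 63 clusters, 44 held 2 peaks, 11 held 3 and 3 held 4, and all 5 clusters of 5 or more lay in the centre.

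The largest cluster, II:5320059-5341265, held 9 combined peaks in 21207 bp, of which 10371 bp were covered, and 8 of the 9 were found in replicate 1. It included the second strongest peak of the chromosome, II:5335265-5339486, beside II:5321619-5322419 with q = 3.8e-25 and II:5329573-5330767 with q = 4.2e-24. Its member without a replicate 1 peak was II:5333834-5334971, with q = 2.8e-06. Strong and weak peaks thus stood side by side within it.

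A cluster at II:10537950-10563699 held 7 combined peaks over 25750 bp, the longest of the 5, and 5 of them were found in replicate 1. It contained 3 of the 20 strongest peaks of II, namely II:10541925-10550428, II:10551678-10552643 and II:10563245-10563699. Another cluster of 7, II:6835544-6853375, was made of weaker peaks, the strongest with q = 4.2e-12, and 5 were found in replicate 1. The clusters of 5 were II:8740316-8751411, with 3 found in replicate 1, and II:9135427-9143303, with 4 found.

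The strongest peaks of II ranked below the leading peaks of the genome. Peaks were ranked by the authors' q-value, where a smaller q stands for a stronger peak, and strength is given as -log10 q. II held 1 of the 25, 7 of the 100 and 51 of the 500 strongest combined peaks, or 4%, 7% and 10.2% (95% exact intervals 0.101 to 20.4, 2.86 to 13.9 and 7.69 to 13.2), beside 10.1% of the whole list. In replicate 1 the counts were 1 of 25, 9 of 100 and 58 of 500. Median -log10 q was 5.98 on II and 6.05 to 6.31 on the other chromosomes in replicate 1. In the combined list it was 5.91 on II and 6.35 to 6.85 elsewhere, while the upper quartile was 11.02 on II and 11.2 to 11.4 elsewhere. The upper quartile of II was not lowest in replicate 1. There it was 10.4 on II, 10.5 on X, 10.6 on I and 9.44 to 10.1 on the others.

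The strongest peak of II was II:5543277-5544434, 1158 bp wide, with q = 5.6e-60 in replicate 1 and 8.6e-98 in the combined list. It ranked 24 of all replicate 1 peaks and 21 of all combined peaks, and the replicate 1 peak, II:5543288-5544390, lay within it. II:5335265-5339486 followed with q = 1.2e-51 in replicate 1 and 3.4e-83 in the combined list, at ranks 32 and 35. II:2378305-2379136, in the otherwise sparse left arm, had q = 1.5e-51 in replicate 1 and 1.2e-82 in the combined list, at ranks 33 and 37. These 3 peaks had almost the same rank in both lists.

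II:11633924-11637651, 3728 bp wide at the start of the right arm, had a combined q of 4.4e-76, and in replicate 1 it appeared as 2 peaks, the stronger with q = 5.8e-38. II:5844500-5845254 had q = 2.4e-44 in replicate 1 and 5.0e-70 in the combined list. The window II:5000001-6000000 therefore held 3 of the 5 strongest peaks as well as the most peaks. II:9141164-9143303 had q = 2.2e-28 in replicate 1 and 9.6e-56 in the combined list, and its rank differed more, 91 and 74.

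II:10563245-10563699 and II:8561149-8561583 were narrow for strong peaks, 455 and 435 bp against a median of 998.5 bp for the 20 strongest. Their combined q was 2.2e-54 and 4.1e-46. In replicate 1 they measured 449 and 425 bp and ranked 55 and 100. The next peaks were II:10541925-10550428, II:11749100-11750299, II:6588752-6589696, II:2973751-2974454 and II:14039786-14040816, with combined q from 4.6e-40 to 1.4e-37. II:10868668-10869062, 395 bp wide with q = 2.4e-37, was the narrowest of the 20.

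The remaining 6 of the 20 were II:6346412-6348875, II:9059926-9062147, II:14561440-14561903, II:9603311-9603781, II:5660769-5662495 and II:10551678-10552643, with combined q from 6.3e-36 to 5.0e-33. Among the 20, 14 lay in the centre, 2 in the left arm and 4 in the right arm. All 20 had a larger q in replicate 1 than in the combined list, and their replicate 1 ranks reached at most 302. Their choice by small combined q favours this. It also held at 231 of the 237 combined peaks of II that overlapped 1 replicate 1 peak and were its only partner. The 20 are the strongest combined peaks found in both replicates, and the 131 strongest combined peaks of II all met that condition.

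The share of centre peaks varied with strength without a steady trend. In 4 groups of 109, 108, 108 and 108 peaks from strongest to weakest, 55.0%, 54.6%, 72.2% and 59.3% lay in the centre. The top 50% of the whole combined list had 199 peaks on II, 53.8% of them in the centre, against 60.3% of all combined peaks of II. These 199 are part of that total, and no interval is given for their share. Median -log10 q was 6.73 in the left arm, 5.67 in the centre and 7.26 in the right arm, so that the dense centre had the weakest typical peak. In replicate 1 the medians were 5.99, 5.57 and 6.84, which again put the centre lowest.

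Peaks on II had a median width of 395 bp, with quartiles of 308 and 577 bp. The combined median was between 282 bp on V and 390 bp on X on the other chromosomes. In replicate 1 it was 388 bp on II, 403 bp on I, 410 bp on X and 295 to 383 bp on the others, so II did not rank first there. By part of the chromosome the combined median was 369 bp in the left arm, 395 bp in the centre and 403 bp in the right arm. The window II:7000001-8000000 stood out with a median of 518.5 bp over 32 peaks, and II:9000001-10000000 with 306 bp over 37.

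Wide peaks made up more of II than of other chromosomes in the combined list, but not in replicate 1. Peaks of at least 1000 bp numbered 34, or 7.85%, against 2.71% on V to 5.43% on X, and they held 26.1% of the covered length of II. Of these 34, 25 lay in the centre, or 73.5%, against 60.3% of all combined peaks of II. In replicate 1, 26 of them were found, or 76.5%, against 55.9% of all combined peaks of II. The wide peaks were also stronger, with a median -log10 q of 13.0 against 5.91 for all. Replicate 1 itself had 15 peaks of this width on II, or 6.05% of its peaks there, against 6.58% on X and 1.89% to 4.61% on the others.

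The widest peak, II:10541925-10550428, measured 8504 bp, and replicate 1 had 2 peaks there, II:10541922-10543450 of 1529 bp with q = 4.5e-09 and II:10546198-10549857 of 3660 bp with q = 5.3e-18. II:5335265-5339486 was 4108 bp wide in the replicate 1 list, against 4222 bp when combined. II:6346412-6348875 was 2446 bp wide in the replicate 1 list, against 2464 bp when combined. These regions thus had nearly the same width in replicate 1, and the rest of the 5 widest did not. II:11633924-11637651, 3728 bp when combined, appeared in replicate 1 as peaks of 2194 and 1164 bp. II:8745808-8748135, 2328 bp wide, was the weakest of the 5 widest, with q = 4.1e-06 in replicate 1 over 1039 bp and 1.7e-10 in the combined list.

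Stronger peaks tended to be wider. Spearman's rho between width and -log10 q was 0.44 over the 248 replicate 1 peaks and 0.47 over the 433 combined peaks of II, a description across peaks of 1 list that share its depth. Median width was 490, 415, 344.5 and 308.5 bp in the 4 groups from strongest to weakest. At the other end, 7 combined peaks were under 150 bp, the shortest 4 bp at II:9493599-9493602, and none of the 7 overlapped a replicate 1 peak. All 7 were weak, with a -log10 q from 3.44 to 4.61. Among all peaks of II in ranks 3001 to 4277, whose -log10 q ran from 3.42 to 4.72, only 15 of 150 were found in replicate 1, against 55.9% of all combined peaks of II. Replicate 1 had no peak on II under 167 bp.

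**Figure D3:**
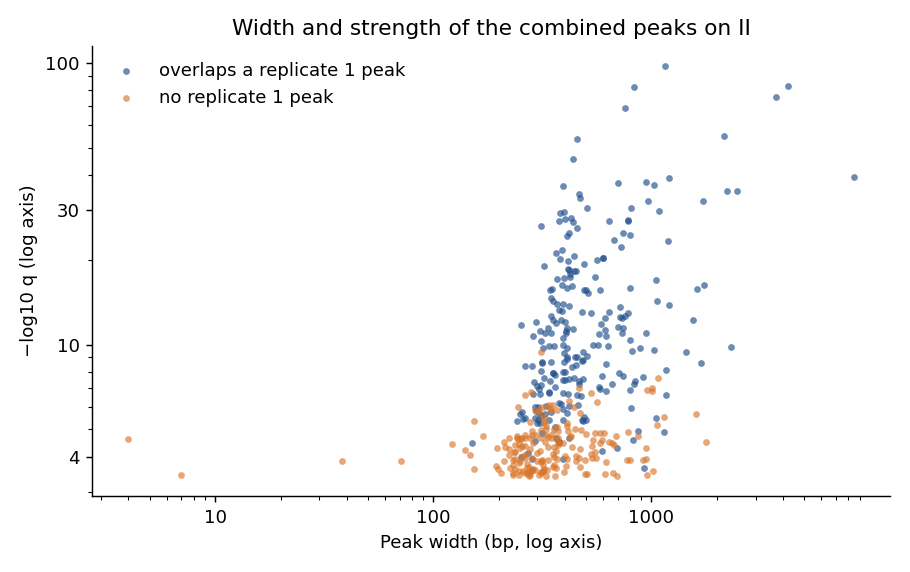
Width (bp, log scale) and -log10 q (log scale) of the 433 combined peaks of II, coloured by overlap with a replicate 1 peak. Peaks above a -log10 q of 9.45 all overlap a replicate 1 peak, and the 7 peaks under 150 bp, all weak with a -log10 q of at most 4.61, do not.

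Recovery of the peaks on II in replicate 1 was close to that of the whole list. Of 433 combined peaks, 242 overlapped a replicate 1 peak by at least 1 bp, or 55.9% (95% exact interval 51.1 to 60.6), against 54.3% of all 4277 combined peaks. All 433 overlapped a replicate 2 peak, against 99.4% over the whole list, so the count in both replicates was also 242, beside 54.3% over the whole list. Replicate 1 peaks covered 0.831% of the span of II. In the other direction 247 of 248 replicate 1 peaks on II overlapped a replicate 2 peak, or 99.6%, against 99.5% over the whole replicate 1 list.

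Recovery depended on strength. The 131 strongest peaks of II were all found, and the first one missing, II:13980066-13980378, had rank 1357 of the whole list and q = 3.6e-10. In the 4 groups from strongest to weakest 109 of 109, 92 of 108, 33 of 108 and 8 of 108 were found. The 242 found peaks had a median width of 428 bp and a median -log10 q of 9.94, and the 191 not found had 325 bp and 4.30. The weakest peak that was found, II:2451076-2451358, had q = 0.00026.

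At equal rank the share found was 57.4% on II (95% exact interval 42.2 to 71.7) and 49.2% on all other chromosomes (44.5 to 53.9) for ranks 2001 to 2500. For ranks 1501 to 2000 it was 92.1% (78.6 to 98.3) and 77.9% (73.9 to 81.6), and for ranks 2501 to 3000 it was 39.6% (26.5 to 54.0) and 26.6% (22.6 to 31.0). The peaks of II were also wider there, with medians of 437.5 bp on II and 351 bp elsewhere for ranks 1501 to 2000. The other chromosomes include I, whose peaks were found in 37.8% of cases. On III, IV, V and X together the share was 83.3% for ranks 1501 to 2000 and 55.3% for ranks 2001 to 2500. For ranks 2501 to 3000 it was 31.5%. Each lay below the share of II but within its interval, which at 38 to 53 peaks is too wide to show likeness. For ranks 3001 to 4277 the share was 10% on II (5.71 to 15.96). It was 5.5% on all other chromosomes, below that interval, and 6.46% on III, IV, V and X. From rank 1501 on, II thus had the higher share throughout, and the difference was not tested.

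**Figure D4:**
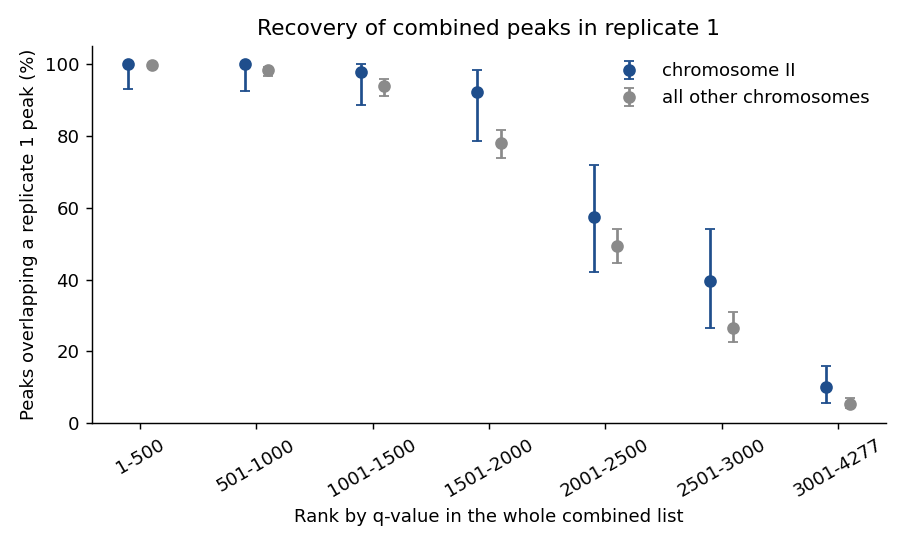
Share of combined peaks that overlap a replicate 1 peak (vertical axis, %) by rank in the whole combined list, for chromosome II and for all other chromosomes; bars are 95% exact binomial intervals. On II the share is 100% in ranks 1 to 500 and 10% in ranks 3001 to 4277.

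By part of the chromosome, 37 of 63 peaks in the left arm, 139 of 261 in the centre and 66 of 109 in the right arm were found in replicate 1. The shares were 58.7% (95% exact interval 45.6 to 71.0), 53.3% (47.0 to 59.4) and 60.6% (50.7 to 69.8), and their intervals overlapped. Among 1 Mb windows the share was lowest in II:7000001-8000000, with 12 of 32, and highest in II:14000001-15000000, with 23 of 32. These windows also had the lowest and the highest median -log10 q, 4.93 and 7.86.

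The 5 strongest peaks without a replicate 1 peak were II:13980066-13980378, II:6967585-6968656 with q = 2.4e-08, II:221155-221617 with 9.4e-08, II:11153096-11154103 with 9.5e-08 and II:7888635-7889590 with 1.3e-07. They measured 313, 1072, 463, 1008 and 956 bp and lay in all parts of the chromosome. The replicate 1 peak without a counterpart in replicate 2 was II:9133430-9133649, 220 bp wide with q = 1.3e-05, at rank 1633 of replicate 1.

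Where peaks of both lists overlapped, their midpoints mostly lay close together. At the 237 combined peaks that overlapped 1 replicate 1 peak and were its only partner, the midpoints differed by a median of 12 bp and by at most 50 bp in 203 of them, or 85.7%. The largest difference was 623.5 bp. Only overlapping pairs enter, which itself limits the distance. Replicate 1 peaks were narrower in 210 of 237, with a median width ratio, replicate 1 over combined, of 0.924. Spearman's rho was 0.93 for -log10 q and 0.89 for width over these 237 pairs. These coefficients describe peaks of 2 lists, each with its own depth.

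The -log10 q was lower in replicate 1 at 231 of the 237 peaks, with a median ratio, replicate 1 over combined, of 0.643 and quartiles of 0.577 and 0.731. The median ratio was 0.619 in the left arm, 0.65 in the centre and 0.637 in the right arm, all inside those quartiles. On the other chromosomes it was 0.481 on I and 0.607 to 0.649 on III, IV, V and X. Among peaks with a combined -log10 q of at least 10 the ratio was lowest at II:9135427-9136156, 0.365, with 4.02 in replicate 1 and 11.02 in the combined list.

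**Figure D5:**
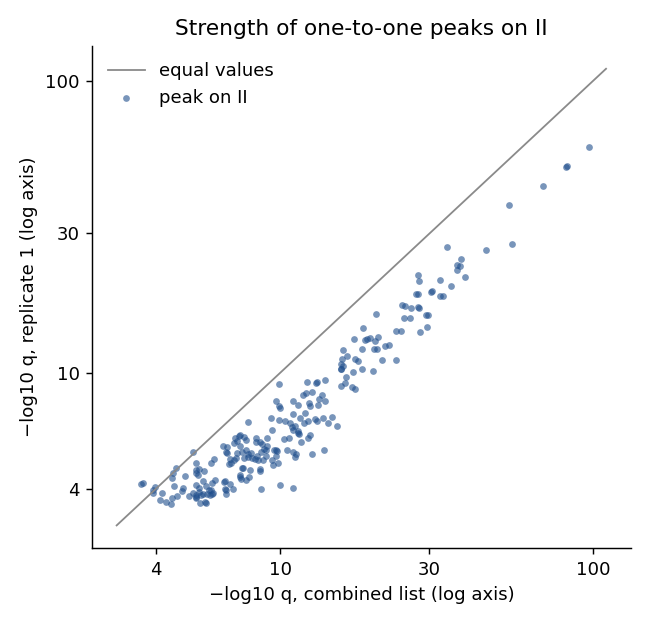
The -log10 q in replicate 1 (vertical, log scale) and in the combined list (horizontal, log scale) of the 237 one-to-one peaks of II; the line marks equal values. The points lie below the line at 231 of 237 peaks, with a median ratio of 0.643.

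On II 5 combined peaks each overlapped 2 replicate 1 peaks, and no replicate 1 peak overlapped 2 combined peaks. Besides II:10541925-10550428 and II:11633924-11637651 these were II:9059926-9062147, II:11149808-11151429 and II:8016054-8017116. At II:9059926-9062147 the replicate 1 peaks were 702 and 406 bp wide, with q = 1.3e-15 and 2.3e-05, against 1 combined peak of 2222 bp with q = 6.7e-36. All 5 were at least 1063 bp wide in the combined list, but only a combined peak longer than the gap between 2 replicate 1 peaks can overlap both.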

How the data were processed

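JUN-1::GFP ChIP-seq peaks were read from 3 deposited lists, 1 for each ChIP replicate and 1 named combined. Each peak has a q-value, called by the authors with PeakSeq on WormBase WS180, per the file headers and source fields. Not given in the sources used here are the PeakSeq version, aligner, read filters, thresholds, use of inputs and making of the combined list. Depth per sample is unknown.

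Chromosome II peaks were taken from each list, and widths, densities, midpoint distances, clusters and overlaps of at least 1 bp were computed with Python 3.11.15, numpy 2.4.6, pandas 2.3.3 and scipy 1.17.1, and plotted with matplotlib 3.10.9. The scripts were tested on simulated data. Named items are the 20 strongest combined peaks in both replicates, the 5 widest, the 5 strongest without replicate 1, replicate 1 peaks without replicate 2, the 5 widest gaps, and the 3 densest and 3 sparsest windows; other items were chosen after their values were seen. The chromosome and the descriptions were chosen with earlier results of these data known. No table of the WS180 build was at hand, so no gene was assigned.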

Additional observations from a re-analysis of the deposited data

How the results depend on the processing

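Of 28 alternatives to 8 results, 27 were planned, and the removal of peaks under 50 bp was chosen after seeing the data. In 17 the value was counted as staying within its interval or the spread between replicates, and in 11 it was counted as moved. The moved ones include the replicate 1 density, width, spacing and strength, although these values are themselves an end of that spread. Many of the 17 had little room to move. The replicate 2 list is nearly the combined list on II, and recovery in replicate 2 was 100% throughout. Recovery in both replicates repeated that in replicate 1. With close peaks joined, the density of 21.6 per Mb counted as staying only because the replicate lists spanned 16.3 to 28.5. The tally therefore does not measure stability. Leaving out either replicate gave 16.3 to 28.5 peaks per Mb, a median width of 388 to 395 bp, a median spacing of 19108 to 36134 bp and a median -log10 q of 5.90 to 5.98. The lower density and longer spacing came without replicate 2, whose list is the longer one. In the top 50% of the combined list, which by construction lacks weak peaks, density was 13.1 per Mb, the centre share 53.8%, median width 456 bp, median spacing 52819 bp, and recovery 96.0% in replicate 1 and 96.0% in both. With the central 33.3% of the span as centre, its share was 44.6%, since it is a smaller part. A reciprocal overlap of 50% and midpoints within 200 bp each gave a recovery of 53.3% in replicate 1. Depth is unknown and limits what a missing peak means. No paired analysis was possible because peaks of the input libraries were not analysed here, and only those libraries repeat the ChIP replicate numbers.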

Other observations

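The 27 combined peaks of II that differed from replicate 2 all lay in 2 windows of 1 Mb, 18 in II:1-1000000 and 9 in II:3000001-4000000, while in the other 14 windows every combined peak was identical to a replicate 2 peak. In 12 of the 27 the q-value was equal, and edges differed by at most 174 bp. II:410877-411226 had the largest difference, with q = 2.0e-16 in the combined list and 1.4e-14 in replicate 2 over a longer peak. The 2 replicate 2 peaks missing from the combined list, II:3439360-3439687 with q = 0.00037 and II:3502623-3502993 with q = 0.00015, lay in the second of these windows and inside the widest gap of the chromosome.

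The replicate 1 peak with no counterpart, II:9133430-9133649, lay 1777 bp upstream of the cluster at II:9135427-9143303 and 71282 bp from the nearest combined peak on its other side. The peak at the near edge of that cluster, II:9135427-9136156, was also the one with the lowest ratio of replicate 1 to combined -log10 q among strong peaks of II.

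No neighbouring combined peaks on II were closer than 211 bp from edge to edge, and the smallest distances on the other chromosomes were 200 to 205 bp.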
